A study of Homo sapiens with 6 samples.

Results

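Genes of the endocrine fibroblast growth factor (FGF) system of liver were examined in HepG2 cells, a human liver cancer line. They were the ligand genes FGF19 and FGF21, the co-receptor gene KLB and the receptor genes FGFR1, FGFR2, FGFR3 and FGFR4. They were chosen by symbol, and all 7 were found among the 52408 genes of the count table. HepG2 cells were kept for 24 h in medium with ellagic acid (EA), a polyphenol of plants, at 50 µM or in medium with an equal share of DMSO, the solvent, and RNA was sequenced from 3 libraries per group. All groups shared the line and the culture medium, and a single dose and a single time were used. Whether each library came from its own culture is not stated in the labels, so the p-values speak to library-to-library spread, possibly a technical one.

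FGF19 and FGF21 are hormones rather than local growth factors. They bind heparan sulfate weakly and reach their receptors through beta-klotho, the membrane protein that KLB encodes. FGF19 is made in the ileum under control of the bile acid receptor FXR, and also by some liver tumours, and acts through FGFR4 with beta-klotho to restrain bile acid synthesis in hepatocytes. FGF21 is made by the liver under fasting and amino acid or endoplasmic reticulum stress, and acts mainly through FGFR1 with beta-klotho in fat and brain. FGFR2 and FGFR3 are receptors for paracrine FGFs and are used in development and epithelia.

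The stretches before the transcript starts of 4 of these genes are shown because 3 of them (KLB, FGFR3 and FGFR4) had the largest falls among the 5 that could be tested and 1 (FGF21) was nearly unread. Each is the 250 bases before a start in RefSeq's promoter table (build GRCh38.p14, plus strand), 5′ to 3′, in lower case. Capitals mark every match to a GC box (GGGCGG) or to the amino acid response element bound by ATF4 (TGATGNAAT), searched on both strands. The table held 5 of the 7 genes (not FGF19 or FGFR1), with 2 starts for FGFR4, of which the first is shown, and 5 for FGFR2. Which start HepG2 cells use was not measured.

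KLB, chr4:39406680-39406929: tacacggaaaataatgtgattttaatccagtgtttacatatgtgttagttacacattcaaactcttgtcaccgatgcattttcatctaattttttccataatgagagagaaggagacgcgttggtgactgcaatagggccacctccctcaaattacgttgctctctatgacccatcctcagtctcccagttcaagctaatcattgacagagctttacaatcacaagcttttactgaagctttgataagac
FGFR3, chr4:1793043-1793292: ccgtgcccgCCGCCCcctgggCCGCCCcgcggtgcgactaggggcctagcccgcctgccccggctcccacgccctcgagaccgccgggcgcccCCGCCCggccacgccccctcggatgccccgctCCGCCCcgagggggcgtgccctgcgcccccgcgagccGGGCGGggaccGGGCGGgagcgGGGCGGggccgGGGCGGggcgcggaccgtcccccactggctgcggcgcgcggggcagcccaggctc
FGFR4, chr5:177086665-177086914: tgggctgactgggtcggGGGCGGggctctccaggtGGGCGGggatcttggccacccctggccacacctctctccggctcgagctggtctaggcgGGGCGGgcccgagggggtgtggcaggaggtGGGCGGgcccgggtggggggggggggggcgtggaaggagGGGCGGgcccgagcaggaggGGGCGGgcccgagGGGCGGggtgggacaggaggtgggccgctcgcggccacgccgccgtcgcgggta
FGF21, chr19:48755274-48755523: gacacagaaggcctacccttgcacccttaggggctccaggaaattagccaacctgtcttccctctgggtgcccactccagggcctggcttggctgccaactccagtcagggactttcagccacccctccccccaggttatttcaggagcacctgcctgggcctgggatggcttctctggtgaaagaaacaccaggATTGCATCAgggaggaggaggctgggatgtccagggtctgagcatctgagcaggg

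The windows shown for the 3 genes that fell most differed in base composition. FGFR3 has 8 GC boxes, 40 CpG dinucleotides and a GC content of 86.8% in its window, and FGFR4 has 7 GC boxes, 24 CpGs and 79.6%. The window before the second FGFR4 start, not printed, has no GC box, 2 CpGs, a GC content of 57.2% and 1 E-box, so the description of FGFR4 depends on the start taken. KLB has no GC box, 5 CpGs and a GC content of 39.2%. Among the table's 35116 windows of this length, the median held 11 CpGs and 58% GC, and 42.6% held a GC box. FGF21 has no CpG and 1 amino acid response element, beginning 55 bases before the start on the opposite strand, a motif found in 0.888% of the windows. A TATA box (TATAAA), AP-1 motif (TGANTCA), E-box (CACGTG), TEAD motif (GGAATG) and CCAAT box (CCAAT) were also searched on both strands and had no match in the 4 windows printed. These motifs were in 10.7%, 6.57%, 6.34%, 11.9% and 32% of all windows. A match is a stretch of letters and was not tested for binding.

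Libraries held 22987425 to 25973621 reads with DMSO and 15738089 to 19202292 with EA. EA replicate 3 stood apart from the other EA libraries on the second principal component of log2 CPM, which held 2.49% of the variance (CPM are counts scaled to the normalised library size). Its counts differed from theirs by a chi-square per degree of freedom of 13.4 and 15.5, against 3.56 to 4.59 for the other pairs within a group. Hepatocyte markers were read in both groups, and their sum over 10 genes was 49557 to 52412 CPM with DMSO and 13069.8 to 13592 with EA, with 9 of the 10 lower and 1 (APOA1) higher, a call that was lost without DMSO replicate 2 or 3 or EA replicate 1 or 2. Biliary markers summed to 2019 to 2054 and 1835 to 2039 CPM. Fibroblast and stellate cell markers summed to 16.4 to 17.6 and 4.82 to 6.55 CPM, endothelial ones to 2.96 to 3.03 and 4.40 to 5.41, and immune ones to 3.13 to 3.39 and 3.07 to 3.81. COL1A2, DCN, PTPRC, CD68 and CD3E were at 0 in all libraries. A row at 0 need not mean that the gene was silent, a limit set out with FGF19 below. The part of these shifts in the results for the FGF genes was not tested.

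Of the 7 genes, 4 fell with EA, by amounts from 3.03-fold (FGFR2) to 10.8-fold (KLB), while FGFR1 did not pass the test, and FGF19 and FGF21 had too few reads to enter it. EA was compared with DMSO over all genes by edgeR's quasi-likelihood test, and a gene was called at a Benjamini-Hochberg adjusted p under 0.05. The 15648 genes that passed the filter on low counts included 5 of the 7. Of all genes tested 81.0% were called, 40.5% as lower, so a call alone sets few genes apart. Of the 5, 4 were called, each as lower. Of the 5, 3 were called with an estimated fall of at least 2 on the log2 scale, as were 7.08% of all genes tested. The groups did not overlap for 4 of the 5, against 82.9% of all genes tested. Expression was measured in bulk and scaled within each library, so fewer cells expressing a gene and less RNA per cell cannot be told apart.

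FGF19, the ligand that signals back to bile acid synthesis, had few reads in this count table. DMSO libraries held 11, 9 and 10 of its reads, and EA libraries 1, 2 and 4. The groups did not overlap, and EA replicate 3 had the most reads of the EA libraries. Over the groups this was 30 against 7 reads, a level 3.11-fold lower with EA (95% exact counting interval 1.34 to 8.40). Fitted without the filter, where 46.6% of 32015 genes were called, 23.1% as lower, FGF19 had a log2 fold change of -1.73 (SE 0.65) and an adjusted p of 0.0177 in edgeR. That call was lost without EA replicate 1 (adjusted p = 0.0756) or EA replicate 2 (0.0628), and DESeq2 gave an adjusted p of 0.107. Such intervals and floors hold for counting error alone, because the reads carry no molecular identifiers and may be copies. A low count here need not mean low expression: NRAS, which encodes a RAS protein found in most cells, and all 37 mitochondrial genes of the table were at 0 in all 6 libraries, and whether the counting also affected FGF19 was not tested.

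FGF21, the stress hormone of the liver, had almost no reads. It had 0, 1 and 1 reads with DMSO and 0 in each EA library. Both groups were under the floor of 3 reads, which is 0.0405 CPM over the DMSO libraries and 0.0557 CPM over the EA libraries, so no fold change is given. No other gene of GENCODE 29 overlaps FGF19 or FGF21. As for FGF19, a row at or near 0 need not mean that the gene was silent.

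KLB, the co-receptor that both hormones need, had the lowest log2 fold change of the 5 tested genes, close to that of FGFR3. Its level was 159.8, 148 and 175 CPM with DMSO against 10.3, 10.1 and 23.9 CPM with EA. All EA values lay below all DMSO values, and EA replicate 3 was above the other EA libraries. KLB fell by 3.44 on the log2 scale (SE 0.37, adjusted p = 0.000523), with a 95% interval from -4.40 to -2.47. Without EA replicate 3 its log2 fold change was -4.01. Its estimate and that of FGFR3 (-3.28, SE 0.13) lay within the SE of KLB, and without EA replicate 2 their order turned (-3.23 for KLB and -3.27 for FGFR3). Counting KLB itself, 241 genes (1.54% of those tested) had a log2 fold change as low or lower.

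FGFR4, the hepatocyte receptor for FGF19, was at 294, 306 and 278 CPM with DMSO and at 48.7, 51.3 and 48.5 CPM with EA. The groups lay far apart, and the EA libraries were close to each other. FGFR4 fell by 2.56 on the log2 scale (SE 0.07, adjusted p = 6.12e-14), a 5.91-fold difference, and 3.89% of genes had a change as low or lower. FGFR3, at 335, 369 and 350.05 CPM with DMSO and 28.9, 35.2 and 44.0 CPM with EA, was the receptor gene with the largest fall. Its log2 fold change was -3.28 (SE 0.13, adjusted p = 3.1e-09), and 1.85% of genes were as low or lower. FGFR2 had few reads in either group, at 3.19, 3.26 and 3.22 CPM with DMSO and 1.31, 0.848 and 1.06 CPM with EA. The groups did not overlap, and FGFR2 fell by 1.60 on the log2 scale (SE 0.22, adjusted p = 8.6e-06).

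FGFR1, the receptor through which FGF21 mainly acts, was at 131, 143 and 126 CPM with DMSO and at 141, 132 and 150.1 CPM with EA. These ranges overlapped. Its log2 fold change was 0.08 (SE 0.07, adjusted p = 0.300), with a 95% interval from -0.07 to 0.23, that is from 0.953-fold to 1.17-fold. The sign of this small value turned without the filter (-0.05, adjusted p = 0.615), a fit in which the genes tested in both fits shifted by a median of -0.13. FGFR1 shares 138 exonic bases with LETM2 and 156 with an antisense gene in GENCODE 29. With the strand setting of the counting not given in the sources used here, reads of these cannot be told apart from its own.

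**Figure D1:**
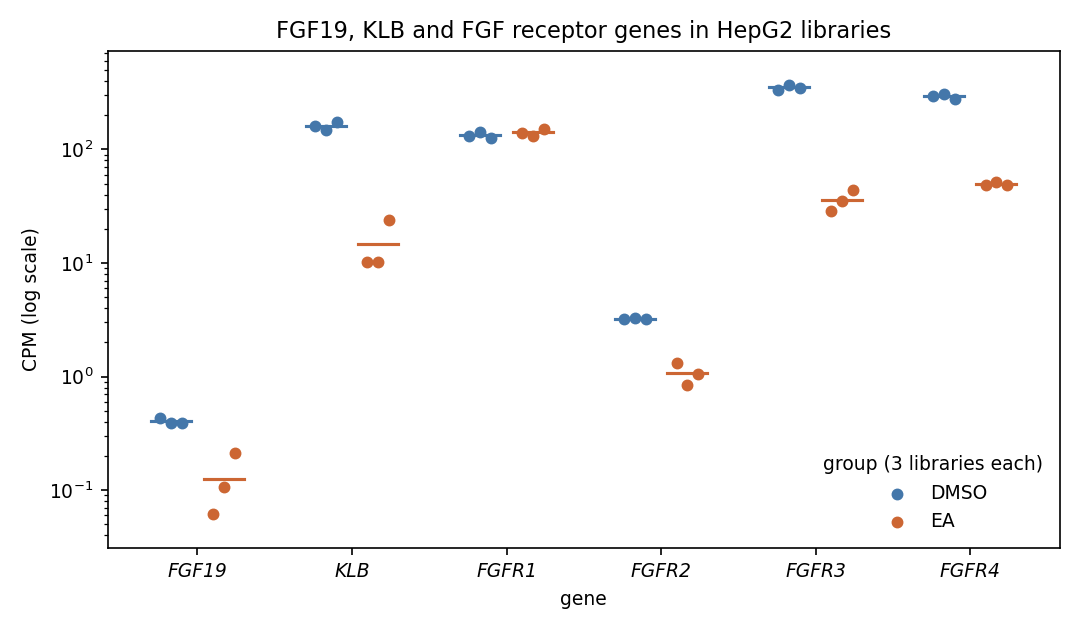
Scaled read counts (CPM, logarithmic axis) of FGF19, KLB and the 4 FGF receptor genes in each of 3 DMSO and 3 EA libraries, with points for libraries and bars for group means. KLB, FGFR2, FGFR3 and FGFR4 lie lower in all EA libraries, FGFR1 overlaps between groups, and FGF19 rests on 1 to 11 reads per library. FGF21, with at most 1 read per library, is not drawn.

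Levels of different genes were compared per length, as CPM per kilobase of annotated exon (RPKM, with lengths from GENCODE 29). On this scale, with DMSO, FGFR3 stood highest at 72.5 ± 3.53 RPKM (SD, n = 3), followed by FGFR4 at 60.6 ± 2.83, KLB at 26.5 ± 2.18, FGFR1 at 9.64 ± 0.610, FGFR2 at 0.426 ± 0.00464 and FGF19 at 0.165 ± 0.00847. The libraries' ranges of neighbours in this order did not overlap. With EA, FGFR4 at 10.3 ± 0.323 RPKM and FGFR1 at 10.2 ± 0.643 were level within their spread. FGFR3 followed at 7.43 ± 1.56, KLB at 2.43 ± 1.30, FGFR2 at 0.141 ± 0.0303 and FGF19 at 0.0517 ± 0.0313. The order depended on the lengths used, and first place turned with them. FGFR1's exons together span 13.842 kb while its longest transcript has 6.216 kb, and those of FGFR4 span 4.829 kb against 3.122 kb. With the longest transcript of each gene, FGFR4 stood above FGFR3 with DMSO, at a mean of 93.7 against 79.2 RPKM, and FGFR1 was at 21.5. With EA, FGFR1 then stood highest at 22.7 RPKM, followed by FGFR4 at 15.9 and FGFR3 at 8.12. With median transcripts, FGFR4 was at 408 RPKM, FGFR1 at 162 and FGFR3 at 136 with DMSO, and FGFR1 at 171, FGFR4 at 69.1 and FGFR3 at 13.9 with EA.

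The summed RPKM of the 4 receptor genes was 143 ± 6.10 with DMSO and 28.0 ± 1.89 with EA, 5.11-fold lower. Its makeup differed between the groups in every library. The share of FGFR1 was 6.77%, 6.87% and 6.55% with DMSO against 38.5%, 34.7% and 36.1% with EA, a difference of 29.7 percentage points. The share of FGFR3 went from 50.7% ± 1.19 to 26.4% ± 3.77 and that of FGFR4 from 42.3% ± 1.09 to 36.7% ± 2.91 (SD, n = 3), while FGFR2 held under 1% of the reads in every library. An exact two-sided permutation test over the libraries gave p = 0.1 for each of the 4 shares, the smallest that 3 against 3 allows. Scaled by the longest transcript, the difference in the FGFR1 share was 37.4 points and that of FGFR4 -14.2, and by the median transcript they were 44.3 and -30.6. The share of FGFR3 differed by more than that of FGFR4 with exon lengths (-24.3 points), and by less with the median transcript (-13.8). The size of these differences thus depended on the length used, while those of FGFR1, FGFR3 and FGFR4 kept their sign under the lengths tried and that of FGFR2 did not.

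**Figure D2:**
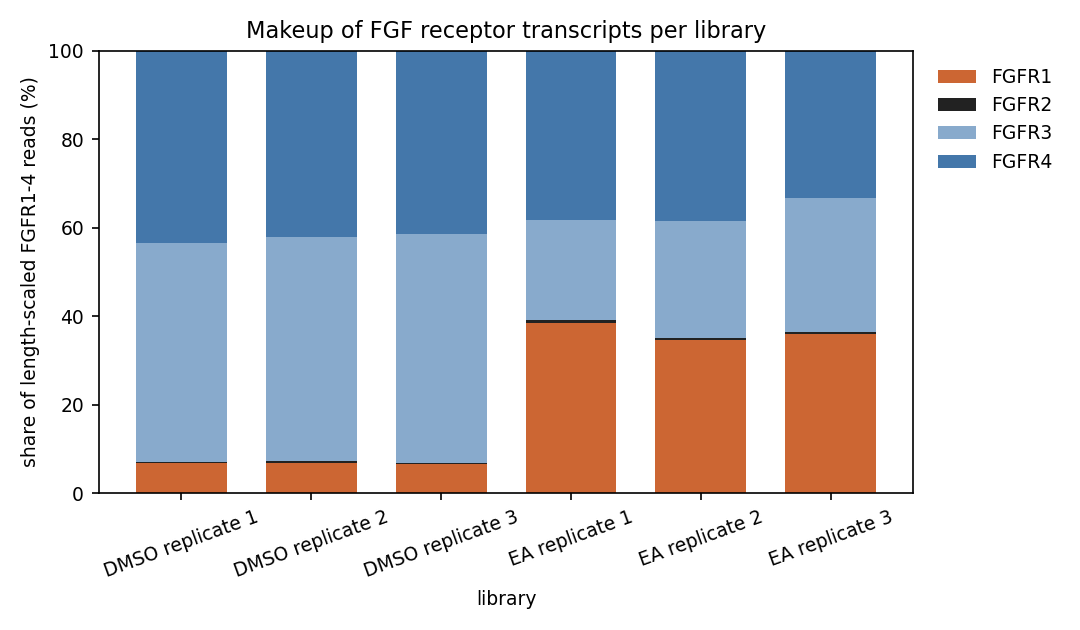
Share (%) of each receptor gene in the reads per kilobase of annotated exon of FGFR1 to FGFR4, one bar per library. FGFR1 takes 6.55% to 6.87% in the DMSO libraries and 34.7% to 38.5% in the EA libraries with the exon lengths used here.

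Within libraries, the log2 ratio of FGFR1 to FGFR4 reads was -1.13 ± 0.03 with DMSO and 1.51 ± 0.13 with EA (SD, n = 3), and that of FGFR1 to FGFR3 was -1.40 ± 0.06 and 1.99 ± 0.26. The log2 ratio of FGFR3 to FGFR4 was 0.26 ± 0.07 with DMSO and -0.48 ± 0.31 with EA, without overlap. These 3 ratios were chosen after the values had been seen. The ratio of FGFR4 to its co-receptor KLB was 0.88, 1.04 and 0.67 on the log2 scale with DMSO and 2.24, 2.34 and 1.02 with EA. EA replicate 3 lay within the DMSO range, so the difference between the falls of FGFR4 and KLB did not hold in every library, and without that library the mean difference between groups was 1.43 in place of 1.00. Exact two-sided permutation tests gave p = 0.1 for the first 3 ratios (0.125 adjusted over 5 ratios computed) and p = 0.2 for FGFR4 to KLB. The fifth ratio, of FGF19 to FGFR4, went from -9.43 ± 0.09 to -8.43 ± 0.69 (p = 0.1, exact), and rests on the few FGF19 reads.

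Genes with the most similar profile over the 6 libraries were sought for the 5 tested genes by the root mean square difference of centred log2 CPM among 12644 genes. The nearest to FGFR4 was the apolipoprotein gene APOA2 (0.037). MBNL3 (0.081) and RGN (0.111) were nearest to KLB. ALDH1B1 (0.069) and SMIM1 (0.078) were nearest to FGFR3, IFFO1 (0.062) and RHBDL2 (0.078) to FGFR2, and APOOL (0.019) and AGAP3 (0.024) to FGFR1. With 2 groups of 3 libraries, such nearness mostly reflects a fold change of the same size.

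Of 12 receptor partner genes listed, 6 were tested, and each of these fell with EA, while 40.5% of all tested genes were lower (median log2 fold change -1.84, against 0.00 for all tested genes). LCTL, a klotho relative with 43, 37 and 27 reads with DMSO and 9, 8 and 7 with EA, passed the filter on its DMSO reads and so could only show a fall, and FLRT1, with 10, 9 and 9 reads with EA, was at its edge. The count of 6 is therefore not evidence about the partners as a list. FGFRL1, a receptor-like protein that lacks the kinase, was at 94.1, 103 and 89.3 CPM with DMSO and at 20.6, 19.5 and 21.2 CPM with EA, a log2 fold change of -2.22 (SE 0.08). CDH2, N-cadherin, which binds FGFR1 at the cell surface, fell by 2.39 (SE 0.07). FLRT3, a membrane protein gene, fell by 1.99, and FGFBP3, which encodes an FGF carrier, by 1.32. The remaining 6, among them KL, which encodes alpha-klotho, and FAP, whose protease cleaves FGF21, were below the filter.

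Of the other FGF genes, 15 of 20 were below the filter, 2 rose, 1 fell and 2 were not called. All tested genes together had 40.5% higher and 40.5% lower. FGF18, a paracrine ligand of FGFR3, had 6, 3 and 1 reads with DMSO and 37, 60 and 36 with EA (log2 fold change 4.13, SE 0.42, adjusted p = 2.12e-07). FGF9, another ligand of FGFR3, had 0, 1 and 1 reads with DMSO and 8, 15 and 19 with EA. Its ratio over the groups was 28.9 with a 95% exact counting interval of 7.52 to 246. Without DMSO replicate 1 the log2 fold change of FGF18 was 4.77. FGF9 and FGF18 passed the filter on their EA reads, so a rise was the only change they could show. FGF17 fell by 1.07 on the log2 scale, from 4.07 ± 1.15 to 1.95 ± 0.359 CPM (SD, n = 3). FGF1 stood at 6.76 ± 1.64 CPM with DMSO and 6.28 ± 0.630 with EA and was not called. All of these ligand genes were read at low levels, FGF18 at 2.46 ± 0.653 CPM with EA.

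Heparan sulfate, the sugar chain that paracrine FGFs need to bind their receptors, was represented by 18 tested genes of 23. Among them 6 rose, 11 fell and 1 was not called (median -0.25), beside 40.5% higher and 40.5% lower over all tested genes. The glypican gene GPC1 rose from 31.7 ± 1.52 to 137 ± 7.39 CPM. SDC2, a syndecan core protein gene, fell by 1.45 on the log2 scale, the sulfotransferase gene HS6ST1 by 1.39 and the glypican gene GPC6 by 1.46.

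Of 26 tested genes that relay receptor signals inside the cell, 11 rose, 13 fell and 2 stayed uncalled (median -0.09). These shares, 42.3% and 50%, lie near the 40.5% higher and 40.5% lower of all tested genes. The ubiquitin ligase gene CBL, which sends activated receptors to degradation, rose from 91.1 ± 4.01 to 311 ± 19.95 CPM. The ERK pathway kinase genes MAP2K1 and BRAF rose by log2 fold changes of 1.84 and 1.32, and RPS6KA3, a kinase downstream of ERK, fell by 2.18. FRS2, the adaptor that FGF receptors phosphorylate, named here after its value was seen, rose from 29.3 ± 1.33 to 73.0 ± 6.95 CPM.

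Genes commonly induced by FGF and ERK signalling, most of them feedback inhibitors, were higher in 11 of 14 cases and lower in 3 (median 1.58), while 40.5% of all tested genes were higher. By the smallest p these were DUSP5, FOS, EGR1 and DUSP4, with log2 fold changes of 4.28, 4.66, 3.17 and 3.48. DUSP6, the ERK phosphatase often read as a marker of FGF signalling, was at 294, 292 and 294 CPM with DMSO and 682, 724 and 775 CPM with EA. SPRY4, a Sprouty inhibitor of receptor kinase signalling, was at 180.2, 191 and 178 CPM with DMSO and 545, 536 and 563 CPM with EA. Both were named after their values had been seen, as were the members that fell, SPRY1 (-1.65), ETV4 (-0.37) and ETV5 (-0.91). Other receptors feed the same pathway, and ERK activity was not measured. The list was chosen with earlier results of these data known, so its count is a description and not a test.

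On the bile acid side of FGF19, 6 of 10 tested genes fell, 2 rose and 2 were not called (median -0.69), beside 40.5% lower and 40.5% higher over all tested genes. Of the 6 that fell, 3 (NR1H4, CYP7A1 and CYP8B1) passed the filter on their DMSO reads and could only show a fall. NR1H4, which encodes the bile acid receptor FXR that induces FGF19, had 616, 513 and 610 reads with DMSO and 1, 2 and 8 with EA. Its log2 fold change was -6.80, and -8.02 without EA replicate 3. NR0B2, a repressor of bile acid synthesis that FXR induces, was at 117, 109 and 97.5 CPM with DMSO and 16.3, 19.0 and 27.3 CPM with EA. The bile acid synthesis genes CYP7A1 and CYP8B1, both restrained by FGF19 in liver, had 81 and 227 reads over the DMSO libraries and 11 and 5 over the EA libraries. All 5 EA reads of CYP8B1 were in EA replicate 3. Its log2 fold change of -4.96 became -9.07 without that library, a fitted value against libraries at 0 that depends on the model and is no measure of size. CYP27A1, of the alternative synthesis route, fell by 0.82 on the log2 scale. SLC51A and SLC51B, the 2 subunits of a bile acid exporter and themselves FXR targets, rose by log2 fold changes of 1.49 and 1.42. SLC51B went from 11.5 ± 0.462 to 30.7 ± 3.37 CPM (SD, n = 3). NR0B2, CYP7A1 and SLC51A were named after their values were seen.

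**Figure D3:**
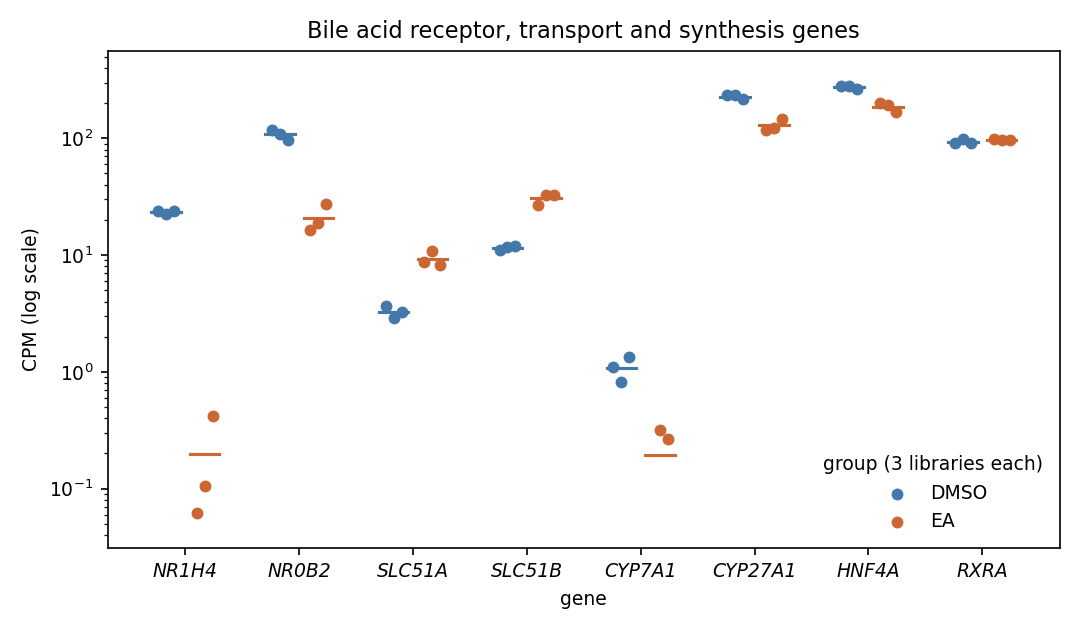
Scaled read counts (CPM, logarithmic axis) of genes around FXR and bile acid synthesis in each of 3 DMSO and 3 EA libraries, with points for libraries and bars for group means. NR1H4 falls to 1 to 8 reads per EA library, SLC51A and SLC51B lie higher in all EA libraries, and RXRA (not called) overlaps. CYP7A1 had 0 reads in EA replicate 1, a point that a logarithmic axis cannot show.

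Known inducers and companions of FGF21 did not move as 1 group. Of 17 tested genes of 20, 11 rose, 4 fell and 2 were not called (median 0.35). Over all tested genes 40.5% were higher and 40.5% lower. ATF4, the factor whose element lies in the FGF21 window shown above, stood at 387 ± 14.2 CPM with DMSO and 392 ± 23.8 with EA and was not called. These are RNA levels, and ATF4 protein and its activity were not measured. The stress cytokine gene GDF15 and the stress gene DDIT4 rose by log2 fold changes of 2.40 and 1.82. ANGPTL4, an inhibitor of lipoprotein lipase and a target of PPAR alpha, rose from 1.84 ± 0.370 to 82.0 ± 14.1 CPM. PPARGC1A, a coactivator of fasting genes, fell by 3.09 and the carbohydrate-sensing factor gene MLXIPL by 3.66 on the log2 scale, and PPARA, the fasting receptor gene that induces FGF21, fell by 0.71. ASNS, the remaining gene that fell, had a log2 fold change of -0.83. ATF4, MLXIPL, PPARA and ASNS were named after their values were seen.

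FGF19 lies beside CCND1 in a stretch that is amplified together in some liver tumours. Of 9 neighbours listed, 6 were tested, and 4 of these rose and 2 fell (median 0.39). The count of rises ran from 3 to 4 with libraries left out in turn, and from 3 to 4 under other settings. Among all tested genes 40.5% were higher and 40.5% lower. CCND1, cyclin D1, went from 554 ± 10.6 to 794 ± 24.5 CPM, PPFIA1 from 96.2 ± 1.75 to 196 ± 16.6 and MYEOV from 3.32 ± 0.311 to 9.04 ± 0.951, and TPCN2 fell by 0.47 on the log2 scale. The other lower gene, FADD (-0.49), was not called without DMSO replicate 2, which left 1 lower. The FGF genes nearest to FGF19, FGF3 and FGF4, had 0 reads in every library, which, as for NRAS, need not mean that they were silent.

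**Figure D4:**
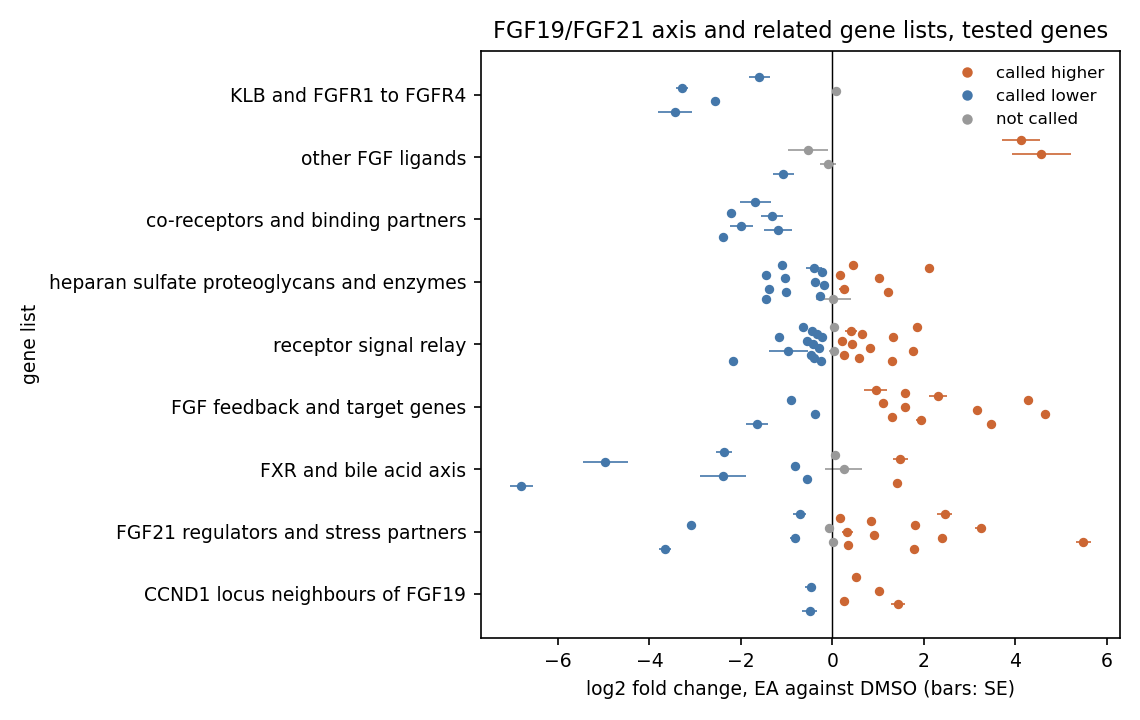
Log2 fold changes (EA against DMSO, bars show the SE) of tested genes in each list, coloured by call in edgeR's quasi-likelihood test. KLB, FGFR2, FGFR3 and FGFR4 and the 6 tested partners lie below 0 (LCTL could only show a fall), and 11 of 14 tested feedback genes lie above it. Lists were chosen with earlier results of these data known.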

How the data were processed

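RNA sequencing counts of 6 HepG2 libraries were used. The authors deposited counts that are whole numbers and not normalised. The submitters' processing notes name HTSeq 0.6.1, HISAT, cutadapt 1.9.1, bcl2fastq 2.17.1.14 and hg19. Of the annotation, strand setting, filters and HISAT version, nothing is given in the sources used here. All 6 count columns matched a sample by name.

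Counts were filtered with filterByExpr, scaled by TMM and tested with edgeR 4.0.16 (R 4.3.3; quasi-likelihood, robust) over 15648 genes, with Benjamini-Hochberg adjustment; the SE is the log2 fold change over the square root of F. Members and gene lists were chosen with earlier results of these data known. Within lists, up to 4 called genes with the smallest p were named. Some others are marked as named after their values were seen. Others, such as FGF1, LCTL, FLRT1, FADD and APOA1, were also outside this rule and are not marked. Some genes taken by the naming rules are not reported here. LTO1 was matched through an older symbol; PECAM1 was not matched and is not analysed here. Lengths came from GENCODE 29, another build, so no gene coordinates are given from it. In simulated counts for this comparison (15274 genes tested), 50 genes were changed by each factor of 1.5, 2, 4 and 8. Of these, 47, 47, 47 and 44 passed the filter, and the test recovered 32, 39, 47 and 44, with 14 false calls. Few genes were changed there, while 81.0% of tested genes were called in the data, so these rates need not carry over. Alternatives were DESeq2 1.42.0, limma-voom (limma 3.58.1), other scalings, filters and lengths, a replicate block and each library left out.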

Additional observations from a re-analysis of the deposited data

How the results depend on the processing

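KLB, FGFR2, FGFR3 and FGFR4 were called lower under every alternative run. Of 70 alternative values for the 5 tested genes, 1 changed sign, that of FGFR1 without a filter (-0.05), and FGFR1 was called under none. Of 433 alternative values for the 31 list genes named by the smallest p, none changed its sign or its call. FGF9 was not tested at 1 CPM in 3 libraries. Among list genes named otherwise, the calls of APOA1 and FADD were lost in some fits, as given above. Same-numbered libraries did not deviate together (correlations of -0.084, 0.027 and -0.015). The labels do not say whether the numbers pair samples, and with 3 libraries per group these correlations cannot exclude it. With a replicate block 12537 genes were called in place of 12680, and KLB had a log2 fold change of -3.51.

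Receptor shares depended on length. EA minus DMSO, in percentage points, was 37.4 for FGFR1 and -14.16 for FGFR4 with the longest transcripts. With median transcripts it was 44.34 for FGFR1, -0.01402 for FGFR2 (a reversed sign), -13.77 for FGFR3 and -30.55 for FGFR4. Raw reads gave 44.9, 0.05777, -29.28 and -15.68 for FGFR1 to FGFR4. Counts of higher genes became 1 for other FGF ligands at 1 CPM in 3 libraries, and 3 for biliary and 1 for fibroblast markers with DESeq2 and without a filter. Lower fibroblast markers became 1 at 1 CPM in 3 libraries. At an adjusted p of 0.01, 1 lower FGF19 neighbour, 0 higher hepatocyte markers and 1 higher endothelial marker were left. With libraries left out in turn these counts ran from 1 to 2, 0 to 1 and 1 to 2. Smaller shifts of other list counts are left out of this paragraph. The causes were not tested. The ratio of FGF21 to FGFR1 was not run because FGF21 was under the floor of 3 reads. FGF19 and FGF21 had 30 and 2 reads with DMSO and 7 and 0 with EA, which sets their precision, and the cause of these low counts was not tested.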
